A study of Mus musculus with 8 samples.

Results

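A set of 9 adhesion molecules through which leukocytes and marrow stromal cells touch each other were examined in MKs cultured alone or with MSCs. They were picked by gene symbol from the deposited count table, and all 9 of the 9 named genes were found among its 13387 genes. The experiment comprised 8 bulk RNA-Seq libraries, with 4 libraries from C57BL/6 murine bone marrow MKs that received no treatment and 4 from MKs cocultured with wild-type marrow MSCs. Both kinds of culture lasted 18 hours in medium with thrombopoietin. MKs had been enriched from flushed marrow with CD41 beads, the MSCs had been sorted as CD45-, Ter119- and CD31- cells carrying CD51 and CD140a, and the coculture protocol has suspension cells drawn off the adherent MSCs by hand. Several wells were pooled for each library. The study gives mice as the replicates, but the labels tie no library to a mouse, so p-values here measure the spread between libraries. The labels give the sequenced cells as MKs freed of platelets, whereas the methods name platelets.

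These molecules form a small set of contacts. VCAM-1 and ICAM-1 are immunoglobulin-superfamily counter-receptors on stromal, endothelial and some myeloid cells, and leukocyte integrins bind them. Integrins are pairs of an alpha and a beta chain. The alpha 4 chain (Itga4), paired with beta 1, binds VCAM-1 and fibronectin. The beta 2 chain (Itgb2) pairs with alpha L (Itgal) to form LFA-1 or with alpha M (Itgam) to form Mac-1, and both bind ICAM-1. CD44 binds hyaluronan, and N-cadherin (Cdh2) and cadherin-11 (Cdh11) join mesenchymal cells to each other through like molecules on the neighboring cell.

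Upstream sequence was held for 4 of the 9 members (Itga4, Itgam, Cd44 and Icam1) in the RefSeq promoter table for GRCm38.p6, and the 250 bases before the start site are shown for 3 of them. Itgam and Itga4 are shown because both were lower in cocultures, and Cd44 because it holds the same motif as Itgam. Capitals mark GAGGAAG, a core of sites for PU.1, a transcription factor of myeloid cells, searched on both strands.

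Itgam (chr7:128062390-128062639, plus strand): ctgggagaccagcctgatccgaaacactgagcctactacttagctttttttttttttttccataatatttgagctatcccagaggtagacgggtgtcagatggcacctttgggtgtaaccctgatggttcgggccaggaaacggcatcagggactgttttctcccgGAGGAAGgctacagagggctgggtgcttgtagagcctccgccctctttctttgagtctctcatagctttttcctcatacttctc

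Itga4 (chr2:79255176-79255425, plus strand): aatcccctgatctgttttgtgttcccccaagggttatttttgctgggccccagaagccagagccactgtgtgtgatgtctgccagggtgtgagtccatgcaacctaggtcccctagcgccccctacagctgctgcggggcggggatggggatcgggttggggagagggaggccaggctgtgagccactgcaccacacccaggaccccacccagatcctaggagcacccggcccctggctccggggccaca

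Cd44 (chr2:102901666-102901915, minus strand): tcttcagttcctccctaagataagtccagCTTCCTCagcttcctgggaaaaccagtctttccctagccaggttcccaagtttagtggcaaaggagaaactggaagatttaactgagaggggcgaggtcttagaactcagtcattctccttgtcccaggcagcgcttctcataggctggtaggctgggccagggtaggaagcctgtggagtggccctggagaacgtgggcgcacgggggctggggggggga

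The motif lay 84 bases before the start of Itgam, on the strand of the gene, and 221 bases before the start of Cd44, on the other strand. It was present in 10.6% of 32851 upstream windows of the same length. The letters GGGNNTTTCC, a core of NF-kB sites, were found in none of the 4 members' windows and in 1.41% of all windows. A match is a description of the letters only. Other forms of these sites were not searched, so a window without a match may still hold a site. With no match to GGGNNTTTCC, no overlap between the motifs arose.

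Totals ran from 4939874 to 12523616 counts per library. Values are given as CPM, library-scaled counts that use TMM factors, on which 3 counts correspond to between 0.28 and 0.66 CPM. Replicate 3 of the cocultures stood apart, where 1012 genes had no count although every other library had 10 or more for them. Of the 9 members, 8 passed edgeR's filter on low counts, and Cdh2 did not, because it had no count in that replicate. A gene counted as called when it changed 2-fold or more, its p after Benjamini-Hochberg adjustment was 0.05 or less, and 1 group or both averaged 1 CPM or more.

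The 4 leukocyte integrin chains were lower in cocultures, Cdh11 rose from near 0, and Vcam1, Icam1 and Cd44 were not called. Thus 4 of the 8 tested members were called lower, where 7.31% of all 11722 genes tested were, and 1 was called higher, where 13.2% were. The median log2 fold change of the 8 members was -1.08, against 0.034 for all genes tested. CPM of the groups did not overlap for 5 members that were lower and 1 that was higher, against 21.1% and 19.3% of the genes tested. Without replicate 3 of the cocultures, all 9 members could be tested, and 4 were called lower and 2 higher, where the corresponding shares of all genes were 15.4% and 20.6%. The 2 called higher were Cdh11 and Cdh2, and Cdh2, with 2 counts in MKs alone, likewise passed only through the cocultures. In those 7 libraries, 5 members were lower and 3 were higher without overlap, against 25.4% and 30.7% of genes. In bulk RNA, fewer cells of a type cannot be told apart from less RNA per cell.

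**Figure D1:**
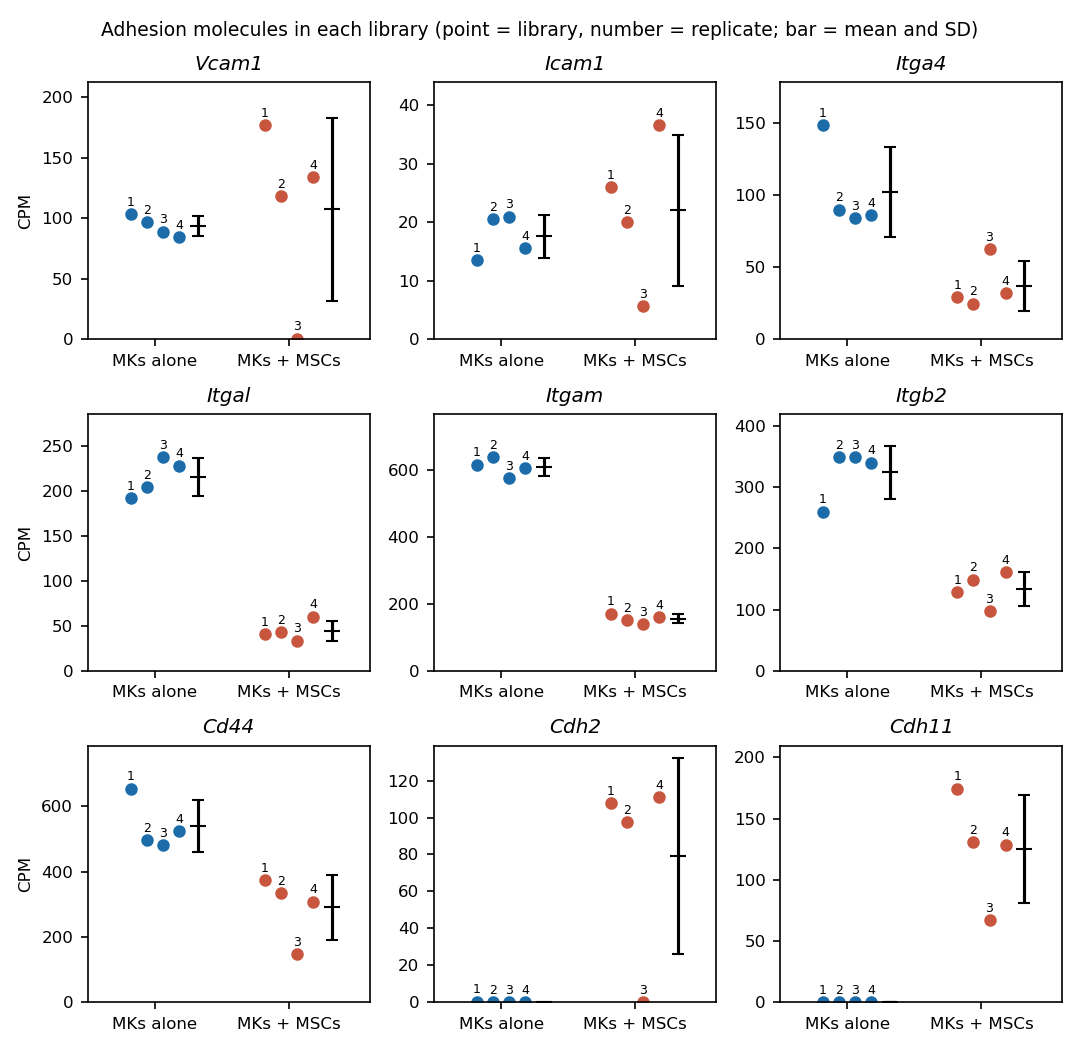
CPM of the 9 members in each library, with MKs cultured alone on the left of each panel and cocultures on the right. Points are libraries numbered by replicate, and the bars give the mean and SD of 4 libraries. Itga4, Itgal, Itgam, Itgb2 and Cd44 lie lower in every coculture than in every culture of MKs alone, while Vcam1 and Cdh2 lie near or at 0 in coculture replicate 3.

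Itgam, the alpha chain of Mac-1 on neutrophils and macrophages (chr7:128062640-128118491), had the highest mean CPM of the members in MKs cultured alone, although Cd44 was higher in replicate 1. Its levels there were 617, 640, 577 and 607 CPM in replicates 1 to 4, and 171, 151, 140 and 160 CPM in the cocultures. Every coculture was below every library of MKs alone, and the cocultures lay within a narrow range that included replicate 3. The mean fell from 610 ± 26.5 (SD, n = 4) to 155 ± 13.4 CPM (SD, n = 4), a 3.93-fold difference, with a log2 fold change of -1.97 ± 0.16 (SE, edgeR adjusted p = 5.7e-05). Gm49368, annotated with exons over those of Itgam on the same strand, held between 0 and 58 counts per library, against 920 to 6214 for Itgam.

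Itgal, the alpha chain of LFA-1 on lymphocytes and other leukocytes (chr7:127296260-127335138), was lower in cocultures, with an interval of its log2 fold change from -2.79 to -1.77 that overlapped that of Itgam, from -2.33 to -1.62. MKs cultured alone held 192, 204, 238 and 228 CPM, and the cocultures held 41.0, 43.0, 33.4 and 60.4 CPM. The groups did not overlap, and the lowest coculture was again replicate 3. The difference was 4.86-fold, with a log2 fold change of -2.28 ± 0.23 (SE, edgeR adjusted p = 0.000172).

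Itgb2, the beta chain shared by LFA-1 and Mac-1 (chr10:77530252-77565708), was lower in cocultures. Its CPM values were 260, 349, 349 and 340 in MKs cultured alone, and 128, 149, 97.6 and 161 in cocultures. The groups did not overlap, although replicate 1 of the MKs alone lay below the other 3. The mean was 2.42-fold lower in cocultures, with a log2 fold change of -1.28 ± 0.21 (SE, edgeR adjusted p = 0.00283). Under scaling to MK and platelet markers the log2 fold change was -0.98, just under the 2-fold cutoff, and Itgb2 was not called. The median of all genes moved from 0.034 to 0.33 under that scaling, and Itgb2 lay at -1.30 relative to it. Taking off the median largely undoes the scaling, so that value is no separate support.

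Itga4, the VCAM-1 and fibronectin receptor chain (chr2:79255426-79333123), had 149, 89.9, 83.8 and 86.2 CPM in MKs cultured alone. The cocultures held 28.9, 24.5, 62.6 and 32.1 CPM, with replicate 3 the highest. The groups did not overlap, but 1 library in each stood away from the rest, toward higher values. The mean was 2.76-fold lower in cocultures, and the log2 fold change was -1.46 ± 0.36 (SE, edgeR adjusted p = 0.0189). Without replicate 3 of the cocultures it was -1.86 with an adjusted p of 3.65e-06 by edgeR, and over all alternatives the adjusted p ran to 0.0641. Among fits that left out 1 library, the call was lost without replicate 1 or 2 of MKs alone and without replicate 1, 2 or 4 of the cocultures. A block for replicate number also lost it (edgeR adjusted p = 0.0544). Cerkl, whose exons overlap those of Itga4 on the opposite strand, held 1 to 76 counts per library, against 185 to 872 for Itga4, and whether strand was used in counting is not given in the sources used here.

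**Figure D2:**
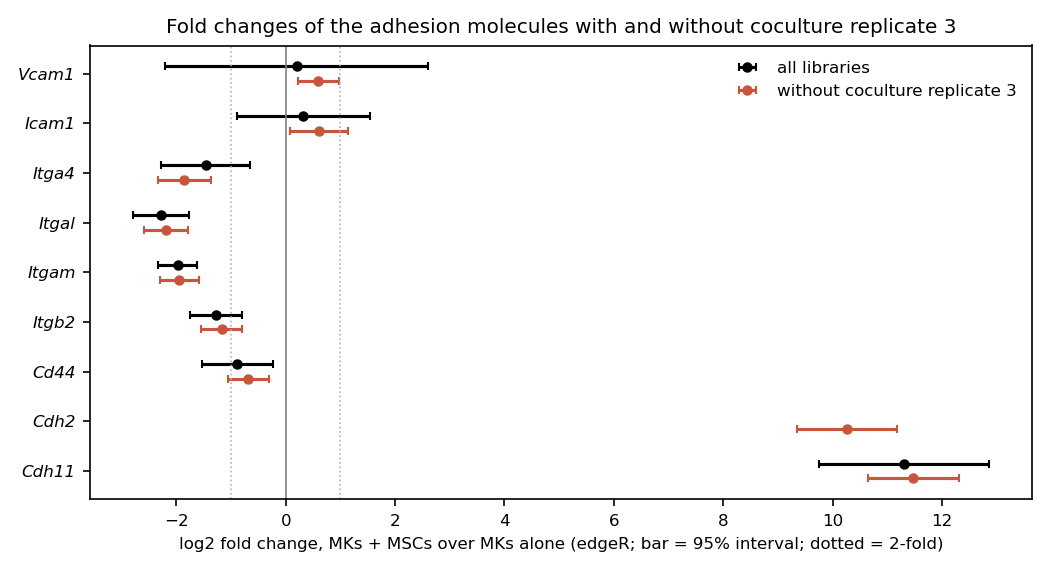
Log2 fold change of each member in cocultures over MKs cultured alone, from edgeR, with all 8 libraries (black) and without coculture replicate 3 (red). Bars are 95% intervals, dotted lines mark 2-fold, and Cdh2 has a value only without that replicate. The intervals of Vcam1 narrow from between -2.20 and 2.60 to between 0.22 and 0.97.

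Vcam1 (chr3:116109949-116129688), the counter-receptor for alpha 4 integrin, was not called in either direction. It was detected in every culture of MKs alone, at 104, 96.8, 88.9 and 84.3 CPM. The cocultures held 177, 118, 0.21 and 134 CPM, and replicate 3 had only 2 counts. Replicates 1, 2 and 4 of the cocultures were above every library of MKs alone, and replicate 3 was below them all. With all libraries the log2 fold change was 0.20, with a 95% interval from -2.20 to 2.60 (edgeR adjusted p = 0.916). Without replicate 3 the mean was 143 ± 30.4 CPM (SD, n = 3) against 93.4 ± 8.50 (SD, n = 4), a 1.53-fold difference with a log2 fold change of 0.60, an interval from 0.22 to 0.97 and an adjusted p of 0.00935 by edgeR, which stayed under the 2-fold cutoff. Over the 14 alternatives the adjusted p ran from 0.00935 to 0.960, and the log2 fold change from -0.41 to 0.60.

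Icam1 (chr9:21015985-21028817), the counter-receptor of LFA-1 and Mac-1, had the lowest CPM of the members that were above 1 CPM in MKs cultured alone. Those libraries held 13.5, 20.5, 21.0 and 15.6 CPM, and the cocultures held 26.0, 20.1, 5.65 and 36.6 CPM. The groups overlapped with and without replicate 3, which was again the lowest. The log2 fold change was 0.32, with an interval from -0.90 to 1.54 (edgeR adjusted p = 0.708). Without replicate 3 of the cocultures it was 0.61, with an interval from 0.079 to 1.13 and an adjusted p of 0.0487 by edgeR, and over the alternatives the adjusted p ran from 0.0487 to 0.999.

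Cd44, the hyaluronan receptor of hematopoietic and mesenchymal cells (chr2:102811141-102901665), had 654, 495, 480 and 524 CPM in MKs cultured alone. The cocultures held 375, 333, 147 and 308 CPM. Every coculture lay below every library of MKs alone, and replicate 3 lay lowest. The mean was 538 ± 79.2 (SD, n = 4) against 291 ± 99.8 CPM (SD, n = 4), a 1.85-fold difference that stayed under the 2-fold cutoff. Its log2 fold change was -0.89, with an interval from -1.54 to -0.24 (edgeR adjusted p = 0.0548). Without replicate 3 of the cocultures it was -0.69 (edgeR adjusted p = 0.00336), and over the 14 alternatives the adjusted p ran from 0.00336 to 0.264 with no call.

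Cdh11, a cadherin of mesenchymal cells (chr8:102632095-102785642), was almost without counts in MKs cultured alone, where 1 count was found in replicate 3 and none in the other libraries. The cocultures held 1841, 1006, 641 and 742 counts, or 175, 131, 67.1 and 129 CPM. The gene was thus present in all 4 cocultures, with replicate 3 the lowest. The pooled level was 3707 times that in MKs alone, with a 95% counting interval (Clopper-Pearson) from 665 to 146439. The fitted log2 fold change was 11.3 ± 0.69 (SE, edgeR adjusted p = 1.85e-05), a size that depends on the prior count of the fit because 1 group is near 0.

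Cdh2, the N-cadherin gene (chr18:16588877-16809246), showed the same near absence in MKs cultured alone, with 2 counts in replicate 1 and 0 in the others. The cocultures held 1138, 749, 0 and 640 counts, or 108, 97.6, 0 and 111 CPM. Replicates 1, 2 and 4 lay close together, whereas replicate 3 had none, where 3 counts would correspond to 0.31 CPM. The pooled level over all cocultures was 1107 times that in MKs alone, with a counting interval from 306 to 9147, and 1548 times without replicate 3, from 428 to 12791. Without the filter on low counts the gene was called higher by edgeR (adjusted p = 0.0103), where 13.5% of 13387 genes were, and without replicate 3 the adjusted p was 1.09e-11. Over the 6 alternatives that tested it the adjusted p ran up to 0.0620, reached without replicate 1 of MKs alone, where the call was lost. Both cadherins were thus found together in 3 cocultures, and only Cdh11 was detected in replicate 3. That library had the most counts, 12523616, yet no count for 1012 genes with 10 or more in every other library. A 0 there therefore does not show that Cdh2 was absent.

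Levels of different members were compared as CPM per kilobase of annotated exon. In MKs cultured alone the order was Itgam at 121 ± 5.27, Itgb2 at 106 ± 14.2, Cd44 at 79.5 ± 11.7, Itgal at 32.9 ± 3.22, Vcam1 at 10.5 ± 0.96, Itga4 at 7.31 ± 2.22 and Icam1 at 4.05 ± 0.85 CPM per kilobase (SD, n = 4). The ranges of Itgb2 and Cd44 overlapped, as did those of Vcam1 and Itga4. Both cadherins were under 0.1 CPM per kilobase in each of these libraries. In cocultures Itgb2 at 43.8 ± 9.05 and Cd44 at 42.9 ± 14.7 led, followed by Itgam at 30.9 ± 2.67 and Cdh11 at 14.1 ± 4.96 CPM per kilobase. Then came Vcam1 at 12.1 ± 8.52, Cdh2 at 9.81 ± 6.58, Itgal at 6.77 ± 1.73, Icam1 at 5.06 ± 2.96 and Itga4 at 2.65 ± 1.24. Every pair of neighbors in that order overlapped except Itgam and Cdh11. When the longest coding transcript was used as the length, the order in MKs alone was unchanged, and in cocultures Cd44 at 51.8 stood above Itgb2 at 45.1, Vcam1 at 30.9 above Cdh11 at 22.2, and Icam1 at 8.71 above Itgal at 8.51 CPM per kilobase.

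The balance between chains was compared as log2 ratios within each library, in 4 ratios that were adjusted together. Itgam over Itgb2 was 0.92 ± 0.23 (SD, n = 4) in MKs cultured alone and 0.23 ± 0.27 in cocultures, lower in every coculture (exact permutation test, two-sided, with p = 0.0286, as low as 4 against 4 libraries can go, and 0.0571 after adjustment). Itgal over Itgam was -1.50 ± 0.19 and -1.81 ± 0.31 (exact permutation p = 0.143, adjusted 0.190). Vcam1 over Icam1 was 2.36 ± 0.36 and 1.15 ± 2.44 (exact permutation p = 0.514, adjusted 0.514), with -2.46 in replicate 3 of the cocultures. Cdh2 over Cdh11 was between -0.69 and -0.21 in 3 cocultures and -6.09 in replicate 3, whereas in MKs alone both genes are near 0 and the ratio is set by the 1 CPM added to each level (exact permutation p = 0.0286, adjusted 0.0571). None of the 4 ratios passed after adjustment.

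Per kilobase, the measured alpha partners of Itgb2 (Itgal, Itgam and Itgax) summed to between 1.32 and 1.80 times Itgb2 in MKs cultured alone and to between 0.76 and 1.03 times in cocultures. Itgam made up 75.7% to 80.3% of that sum in MKs alone and 76.7% to 84.6% in cocultures, and Itgax, the alpha X chain of dendritic cells and macrophages, at most 1.73% in any library. The beta 1 chain Itgb1, the partner of alpha 4, was chosen after its values were seen. It rose with a log2 fold change of 1.76 ± 0.31 (SE, edgeR adjusted p = 0.00379) while Itga4 fell, from 81.0 ± 12.1 to 275 ± 97.7 CPM per kilobase (SD, n = 4). Itgb7, the other partner of alpha 4, had 13.5 ± 3.06 and 8.35 ± 3.49 CPM per kilobase and was not called (log2 fold change -0.70, edgeR adjusted p = 0.232).

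Other genes of the same contacts were taken from 6 lists, to be read against the 13.2% of all genes tested that were called higher and the 7.31% called lower. Of the integrin subunits that partner or resemble the members, 9 of 13 in the table were tested, 4 were called higher and none lower, with a median log2 fold change of 1.66. Among them, Itgb5 rose from 18.8 ± 3.69 to 242 ± 50.4 CPM (SD, n = 4, as for all levels of these lists) (log2 fold change 3.68, edgeR adjusted p = 2.7e-05), and Itga5, the fibronectin receptor chain, from 17.8 ± 3.40 to 198 ± 116 CPM (3.47, adjusted p = 0.00294). Itgav, which encodes the CD51 used to sort the MSCs, rose from 40.5 ± 11.7 to 253 ± 116 CPM (2.64, adjusted p = 0.00286). The integrin activation adaptors had 2 called higher and 3 lower of 13, with a median of -0.91, and the share higher was near that of all genes. Fermt2, the kindlin of adherent cells, had 0.094 ± 0.068 CPM in MKs alone and 139 ± 70.3 CPM in cocultures (adjusted p = 3.81e-05), and Tln2 had 0.14 ± 0.11 CPM and between 13.7 and 48.6 CPM (adjusted p = 0.000574). Rassf5, an LFA-1 activator of lymphocytes, fell from 163 ± 12.9 to 35.8 ± 9.92 CPM (log2 fold change -2.19, adjusted p = 0.000289).

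Of the matrix and CD44 partners, 3 of 12 were called higher and 1 lower, with a median of 0.59. Spp1, the secreted CD44 and integrin ligand osteopontin, rose from 49.8 ± 10.6 to 10261 ± 2697 CPM (log2 fold change 7.69, edgeR adjusted p = 6.11e-06), and Fn1, the fibronectin ligand of alpha 4, from 22.3 ± 2.31 to 637 ± 270 CPM (4.84, adjusted p = 7.5e-05). Lyve1, another hyaluronan receptor, fell from 3.66 ± 0.79 to 0.35 ± 0.32 CPM (adjusted p = 0.0270). Among 5 tested cadherins and catenins, 2 were called higher and 1 lower, with a median of 0.87. The catenins Ctnnd1 and Ctnna1, which tie cadherins to the cytoskeleton, rose with log2 fold changes of 2.54 and 1.54 (adjusted p = 0.000113 and 0.000984), and the epithelial cadherin Cdh1 fell from 24.6 ± 2.67 to 3.53 ± 2.30 CPM (-2.79, adjusted p = 0.0126).

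Selectins and their ligands had 3 of 6 called lower and none higher, with a median of -1.34. Cd24a, a mucin-like ligand of P-selectin, fell from 897 ± 137 to 129 ± 70.2 CPM (log2 fold change -2.80, edgeR adjusted p = 0.0042) and the P-selectin ligand Selplg from 166 ± 43.2 to 62.3 ± 17.6 CPM (-1.41, adjusted p = 0.00718). Of 11 other immunoglobulin-superfamily molecules 1 was called higher, a share no larger than that of all genes, with a median of -0.33. It was Jam3, at 0.34 ± 0.47 CPM in MKs alone and 20.2 ± 10.8 CPM in cocultures (adjusted p = 0.00423). Pecam1, which was not called and had the highest mean over all 8 libraries of those not called, had a log2 fold change of -0.33 (adjusted p = 0.798). It held 56.5 to 80.6 CPM in MKs alone and 161 CPM in replicate 3 of the cocultures. The other cocultures, at 13.8 to 18.8 CPM, lay below every library of MKs alone. Without that replicate, where 20.6% of all genes were called higher and 15.4% lower, 2 of these 11 molecules were called higher and 4 lower, and the integrin subunits had 6 higher and 1 lower of 11. The adaptors then had 3 higher and 4 lower of 13, and the selectins and their ligands 1 higher and 3 lower of 6. The matrix partners had 5 higher and 2 lower of 12, and the cadherins and catenins 4 higher and 1 lower of 6.

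**Figure D3:**
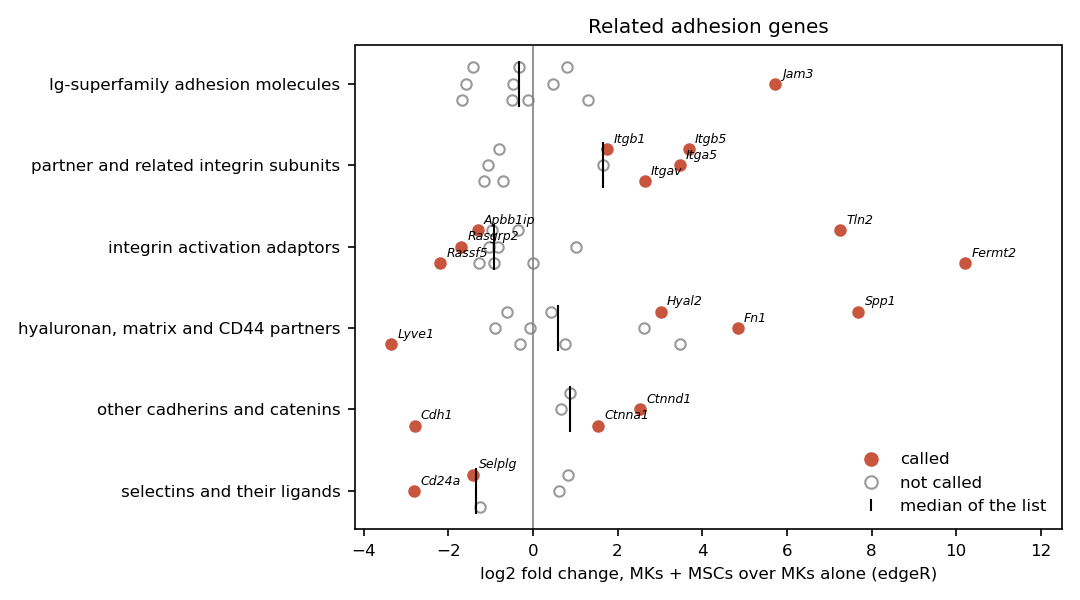
Log2 fold change (edgeR, cocultures over MKs cultured alone) of tested genes from 6 lists of related adhesion genes. Red points were called, open gray points were not, and black ticks are list medians. The called genes shown for selectins and their ligands lie below 0 and all called integrin subunits above it.

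Markers of several cell types moved with these genes, and their part in the results was not tested. All 12 neutrophil markers were called lower, and their summed level was between 85408 and 87590.3 CPM in MKs alone and between 4606 and 10346 CPM in cocultures. MK and platelet markers, the labelled cell type, summed to between 2402 and 2664 CPM in MKs alone and between 1846 and 2408 CPM in cocultures, with 1 of 15 called lower and Gp6 at 0 in replicate 3. Of 11 macrophage markers 10 were tested and 9 were called higher, with sums of 174 to 236 and 1153 to 1565 CPM, and in replicate 3 of the cocultures Fcgr1 was at 0. Of 13 MSC markers 11 were in the table, 9 were tested and 7 were called higher, with sums of 14.7 to 22.8 and 1408 to 3987 CPM. The lowest coculture was replicate 3, where Lepr, Postn and Kitl were at 0.

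Of 9 B cell markers 4 were called lower, with sums of 886 to 946 CPM in MKs alone and 91.1 to 236 CPM in cocultures, and Vpreb1 and Igll1 were at 0 in replicate 3. Of 6 tested T and NK cell markers 4 were called lower, with sums of 135 to 229 and 1.26 to 31.3 CPM, and Cd3e, Cd3g, Cd8a and Klrb1c were at 0 in replicate 3. Endothelial markers, of which 5 were tested and 1 was called lower, summed to 68.5 to 73.9 and 11.2 to 40.5 CPM, with Kdr, Emcn, Tie1 and Egfl7 at 0 in replicate 3. Of 5 tested erythroid markers none was called, with sums of 42.4 to 64.9 CPM in MKs alone and 19.9997 to 93.8 CPM in cocultures. The highest sum was that of replicate 3, where Alas2, Klf1 and Ermap were among those at 0, and the sums of the other cocultures lay below every library of MKs alone. Without replicate 3, 5 of 7 tested erythroid markers were called lower.

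**Figure D4:**
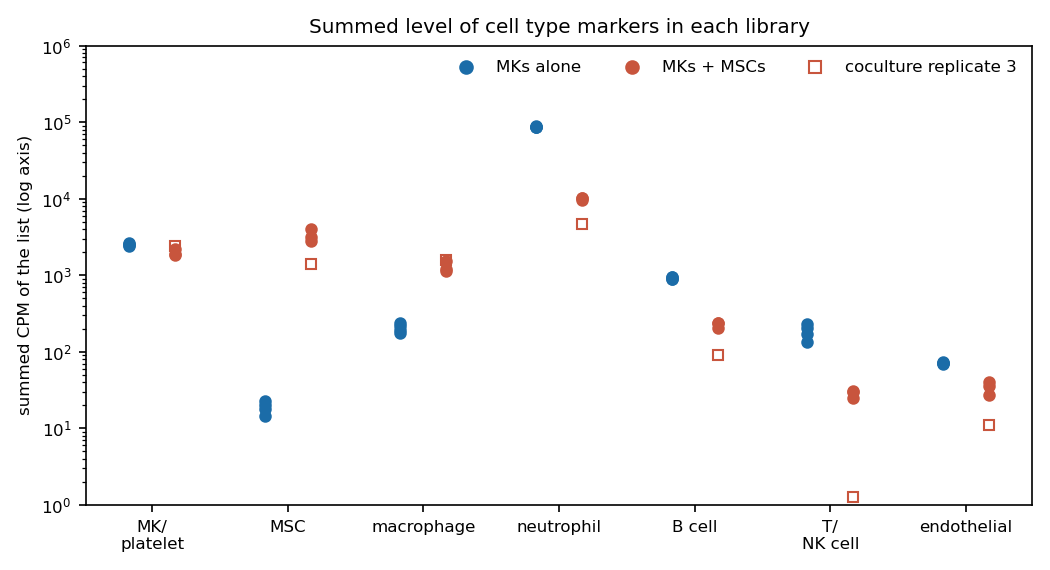
Summed CPM of 7 marker lists in each library, on a log axis, with MKs cultured alone in blue, cocultures in red and coculture replicate 3 as an open square. Neutrophil, B, T and NK cell and endothelial sums are lower in every coculture, and MSC and macrophage sums higher in every coculture, than in any library of MKs alone.

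Profiles most like each member were sought among 9624 tested genes with at least 10 CPM in a group, as the smallest root mean square distance of centered log2(CPM + 1) over the 8 libraries. Nearest to Itgal were Rassf5 (0.15) and Adpgk (0.18), and to Itgam Sephs2 (0.16) and Pik3cg (0.17). Wdfy4 (0.098) and Orai1 (0.13) lay nearest to Itgb2, and Miga1 (0.17) and Kmt2c (0.18) to Itga4. Rab8b (0.075) and Jak1 (0.081) lay nearest to Cd44. Those of Vcam1 were Sptbn1 (0.16) and Pja2 (0.27), and those of Icam1 Zswim1 (0.16) and Aldh18a1 (0.17). For Cdh11 they were Lurap1l (0.15) and Dclk1 (0.21), and for Cdh2 Lrrc32 (0.31) and Dcbld2 (0.65). Genes that failed the low-count filter, as Cdh2 itself did, were not searched, so profiles nearer to Cdh2 may lie among them. Libraries share their depth and group in these distances, so they describe likeness of pattern only.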

How the data were processed

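Bulk RNA-Seq of 8 libraries was used, 4 from MKs cultured alone and 4 from cocultures, grouped by their labels. Per gene, the authors deposited unnormalized counts. According to the methods, SMART-Seq HT libraries were read from both ends, fastp removed poor reads, and kallisto assigned the rest to an mm10 transcriptome. The methods also name a batch term, and which libraries share a batch is not given in the sources used here. How transcripts were summed to genes is not given in the sources used here.

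The quasi-likelihood F test of edgeR 4.0.16 (R 4.3.3, robust, TMM, filterByExpr, no covariate) was run over all 11722 genes that passed the filter, with Benjamini-Hochberg adjustment. Calls needed a fold change of at least 2, adjusted p of at most 0.05 and 1 CPM in a group. Genes near 0 in MKs alone, such as Cdh11, Fermt2, Tln2 and Jam3, passed the filter only through the cocultures. They could be called only higher, so their direction is no separate result. Alternatives were DESeq2 1.42.0, RLE, library size, MK marker scaling, no filter, a block for replicate number, adjusted p alone, and each library left out. The edgeR and DESeq2 fits, but not the ratio tests, were also run on simulated counts. Those counts had the same dispersion for every gene and no library like replicate 3 of the cocultures, so they do not cover its effect. Ratios were tested by exact permutation in Python 3.11, after adding 1 CPM. Lengths and positions came from GENCODE M21 (GRCm38, the build of mm10).

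The members and gene lists were chosen with earlier results of these data known. Related genes were named as up to 3 called genes with the largest change per list, or, where fewer were called, those and the most abundant gene not called. For each member the 2 nearest profiles were named. Itgb1, Itgb7 and Itgax were singled out after their values were seen. Depth ran from 4939874 to 12523616 counts, and reads carry no molecular identifiers. The counting intervals of Cdh11 and Cdh2 cover counting error only, whereas the edgeR intervals include the spread between libraries. Some genes of the lists are not reported here by name, though they count in their lists.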

Additional observations from a re-analysis of the deposited data

Results flagged for a closer look

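Dixon's test asked, for every member and ratio and within each group, whether 1 of the 4 libraries lay far from the rest. It found 8 such cases in 26 groups. Chance flags about 1 in 20 groups, but the cases are not independent, since ratios repeat their members' values, and with 3 libraries tied at 0 any count in the other one is picked out. Replicate 3 of the cocultures accounted for 4 of them. In that replicate log2(CPM + 1) was 0.27 for Vcam1 and 0 for Cdh2, and the log2 ratios of Vcam1 over Icam1 and Cdh2 over Cdh11 were -2.46 and -6.09. Replicate 1 of the MKs cultured alone stood apart at 7.22 for Itga4, above the others, and at 8.03 for Itgb2, below them. In MKs cultured alone, values of 0.53 for Cdh2 in replicate 1 and 0.15 for Cdh11 in replicate 3 stood apart as well, and these rest on 2 counts and 1 count in libraries where the other 3 had none. Other values of replicate 3 of the cocultures, such as those of Itgam and Itgal, did not stand apart by this test.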

How the results depend on the processing

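Itgal, Itgam and Cdh11 were called in the same direction under all 14 alternatives, and with a library left out their log2 fold changes ran from -2.42 to -2.19, -2.02 to -1.92 and 10.9 to 12.9. In all 5 members were called, and between 4 and 6 when any library was omitted. The number called higher was 1, and 2 without the low-count filter, since Cdh2 was then tested (9.77), with 1 to 2 when a library was left out. The number called lower was 4, and 3 to 4. Same-numbered libraries of the 2 groups had deviations from their group means that correlated across genes at 0.369, 0.0198, 0.15 and 0.028. Libraries with different numbers ran from -0.282 to 0.099, so 0.369 and 0.15 lay above that range and the others within it. These values do not settle whether the numbers pair the libraries. The main fit took them as unpaired, and the block is given as an alternative. With the replicate block 4 members were called, Itga4 at -1.53 no longer was (adjusted p = 0.0544, edgeR), Vcam1 turned to -0.41, and 1669 genes in all were called against 2401, while 4420 were called without replicate 3 of the cocultures. Scaling to MK and platelet markers gave Itgb2 -0.98.

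With a library left out, log2 fold changes ran from -0.15 to 0.60 for Vcam1, -0.00083 to 0.61 for Icam1, -1.86 to -1.24 for Itga4, -1.39 to -1.17 for Itgb2, -1.03 to -0.69 for Cd44 and 9.29 to 12.4 for Cdh2. Called genes numbered 1 to 6 for immunoglobulin-superfamily molecules (1 with all libraries), 4 to 7 for integrin subunits (4), 3 to 7 for adaptors (5), 3 to 7 for matrix partners (4), 3 to 5 for cadherins and catenins (3) and 3 to 4 for selectins (3). Differences in log2 ratio ran from -0.45 to -0.24 for Itgal over Itgam, -0.78 to -0.58 for Itgam over Itgb2, -1.73 to -0.0034 for Vcam1 over Icam1 and -2.49 to -0.53 for Cdh2 over Cdh11. Same-numbered differences, the replicate block for ratios, gave -0.69 for Itgam over Itgb2 and -1.95 for Cdh2 over Cdh11 (exact sign-flip permutation p = 0.125 for both, the smallest that 4 differences allow), and adding 0.5 counts gave -3.10 for Cdh2 over Cdh11 (exact permutation p = 0.314). The cause of these changes was not tested.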
